A study of Arabidopsis thaliana with 5 samples.

Results

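The genes described here are those of the mitochondrial genome of Arabidopsis thaliana and the loci of chromosome 2 that lie in the stretch numbered AT2G076 and AT2G077, where a copy of mitochondrial DNA sits in the nuclear genome. Members were the genes with a probe set of their own in the platform annotation, taken by name alone: 15 mitochondrial genes with 22 probe sets, and 37 chromosome 2 loci with 37 probe sets. These 52 genes were part of 13350 genes named in this way, and their 59 probe sets part of 22810 on the Affymetrix ATH1 array. Without sequence it could not be checked which of the 37 loci, pseudogenes and loci at both ends of the stretch included, lie within the copied DNA. A further 11 probe sets carry 1 name of each kind and were therefore left out of the members.

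All 5 samples came from Columbia seedlings grown for 5 days at pH 5.7 and then kept at pH 4.6 for 24 h. In 3 samples, called sorted protoplasts, whole-root cells were freed from their walls and passed through a cell sorter, and RNA of about 50000 cells was labelled. The other 2 samples were intact whole roots, with 1 µg of total RNA labelled by a one-cycle protocol, while the number of cycles for the sorted protoplasts is not given in the sources used here. The comparison asks what freeing and sorting the cells does to the measured transcripts. No sample at the standard pH was analysed here, so the low pH is shared by both groups. Separate cultures are not stated for the replicates. The p-values therefore cover the variation among these 5 samples alone, and part of it may be technical.

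Mitochondria make ATP with a respiratory chain in which electrons pass from NADH through complex I, complex III and cytochrome c to complex IV, while ATP synthase uses the proton gradient they build. In plants most subunits are encoded in the nucleus, and the mitochondrial genome keeps a core set: nad genes for complex I, cob for complex III, cox genes for complex IV, atp genes for ATP synthase, ccb (now ccm) genes for attaching haem to cytochrome c, and matR for an intron maturase. The members cover nad, cox and ccb genes and matR. The messages of nad1, nad2 and nad5 are joined by trans-splicing from separately transcribed pieces. In plant mitochondria a poly(A) tail marks an RNA for decay, unlike in the cytosol. In Columbia, a copy of most of the mitochondrial genome, nearly identical in sequence, lies near the centromere of chromosome 2, and a short probe may not tell a mitochondrial transcript from one of the nuclear copy.

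The probe set names bear on that question. Affymetrix ends the name of a probe set in _s_at where its probes match more than 1 transcript. This shared-probe class held 4 of the 22 mitochondrial probe sets and 20 of the 37 chromosome 2 probe sets, against 935 of 22746 probe sets on the array once 64 controls were left out. The values below belong to probe sets under the gene name the annotation gives. Without sequence it could not be checked which of them match both copies, so the mitochondrial and the nuclear copy are not told apart here.

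Compared with whole roots, sorted protoplasts had more signal in 10 of the 17 mitochondrial probe sets that could be tested and less in 0, with 7 not passing (limma, Benjamini-Hochberg adjusted p under 0.05 over all tested probe sets). Higher calls made up 34.1% of all 13647 tested probe sets (4649) and lower calls 26.5% (3623), a split that became 5925 and 2876 when each array was centred on its median. Of the 17 tested chromosome 2 loci, 8 rose, 0 fell and 9 did not pass. The median log2 difference (sorted minus whole) was 1.07 for the mitochondrial probe sets, 0.54 for the chromosome 2 probe sets and 0.15 for all tested ones. That of the chromosome 2 probe sets was 0.23 without whole-root replicate 1 and 0.86 without whole-root replicate 2. Testing required a geometric mean signal above 43.3, the bound that leaves out the dimmest 40% of probe sets. This was not reached by 5 mitochondrial and 20 chromosome 2 members. Of the 18 members called higher, 5 had an arithmetic whole-root mean below that bound and so passed the filter through their sorted signal. These were 1 of the 10 mitochondrial and 4 of the 8 chromosome 2 members called. Over the array, 517 tested probe sets had such a whole-root mean, and 391 of them were called higher. With no filter, 10 of all 22 mitochondrial probe sets and 10 of all 37 chromosome 2 probe sets were higher and 0 were lower, against 20.9% higher and 19.7% lower among 22746 probe sets. Just inside the bound lay AT2G07732 with a geometric mean signal of 46.28, and just outside it AT2G07724 with 39.67.

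**Figure D1:**
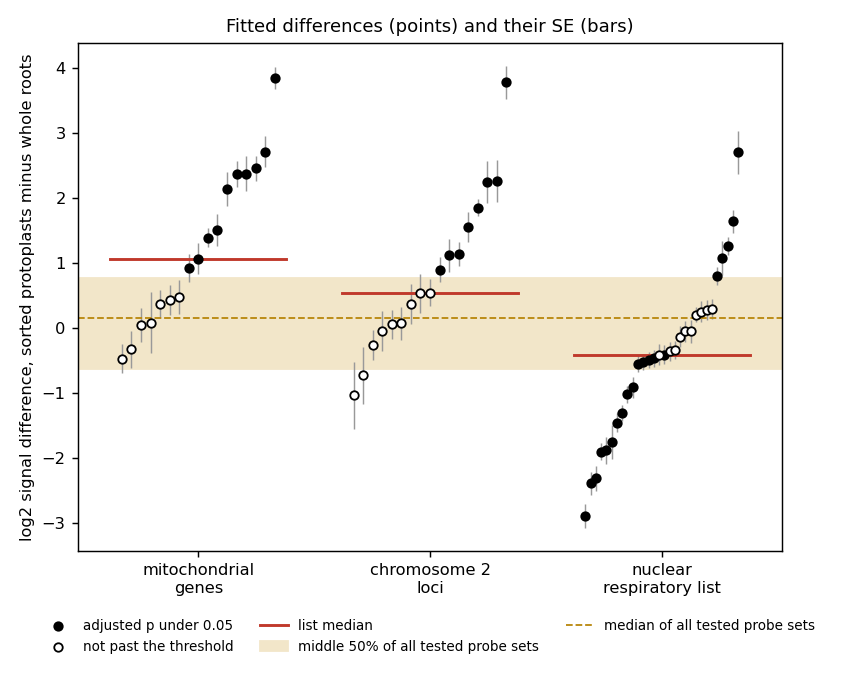
Fitted log2 signal difference (sorted protoplasts minus whole roots, with SE) of each tested probe set of the mitochondrial genes, the chromosome 2 loci and a list of nuclear respiratory genes; filled points have a limma adjusted p under 0.05, the red line is the list median, and the band and dashed line are the middle 50% and the median of all tested probe sets. In the first 2 sets no filled point lies below 0, while the nuclear list has filled points on both sides.

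Control probe sets also differed between the groups. The 3′/5′ signal ratio of an actin control was 19.81 to 29.29 in the 3 sorted arrays and 3.08 to 3.30 in the 2 whole-root arrays. That of a GAPDH control was 5.22 to 9.18 against 0.788 to 0.969. Other controls gave smaller contrasts, with 1.334 to 1.511 against 1.054 to 1.147 for another GAPDH control. Ubiquitin controls gave 4.889 to 5.996 against 2.25 to 2.304, and 2.566 to 2.901 against 1.096 to 1.521. Another actin control gave 107 to 168.6 against 24.53 to 30.84. A control for 25S ribosomal RNA gave signals of 7828, 6874 and 6156 in sorted protoplasts, 96.43 in whole-root replicate 1 and 2897 in whole-root replicate 2. The control for 5S ribosomal RNA ran the other way, with 15.16 to 29.68 in sorted protoplasts and 184.2 to 201 in whole roots. Sorted replicate 1 stood somewhat apart from the other sorted arrays over tested probe sets (r = 0.954 and 0.956, against 0.987 between replicates 2 and 3). Of 18 root and shoot marker genes written down for a tissue check, 4 had a named probe set, so root identity could hardly be checked. Their signals were lower in every sorted array than in both whole-root arrays, an order that held for 33.1% of all tested probe sets. Sorted and whole-root means were 45.49 and 454.9 for the leaf gene RCA and 54.15 and 431.4 for the leaf gene LHCB4.1. For the cortex gene AT1G62510 they were 35.47 and 76.29 (adjusted p = 0.00842 by limma). For the root hair gene EXPA7 the means were 43.37 and 68.49 (adjusted p = 0.140 by limma), where sorted values reached 66.05, close to the whole-root 67.67 and 69.3. The part of these differences in the results was not tested. In such bulk samples fewer cells of a type and less RNA per cell cannot be told apart.

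Complex I is the entry point for electrons from NADH. Of 10 tested probe sets of its mitochondrial genes 7 were higher in sorted protoplasts, beside 34.1% of all tested probe sets. The genes nad1 and nad5 each gave 2 of these calls. The core membrane subunit nad5 differed most. Its probe set 257337_at gave 493.9, 458.4 and 503.4 in sorted protoplasts and 35.63 and 31.58 in whole roots. The lowest sorted value was thus far above both whole-root values, with means of 485.2 ± 23.74 (SD, n = 3) and 33.60 ± 2.86 (SD, n = 2). The log2 difference was 3.85 (SE 0.17, limma adjusted p = 7.41e-06). Because the whole-root mean lay below the filter bound, the fold is imprecise, and set against that bound the sorted mean was 11.2-fold higher.

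The other membrane-arm subunits nad6 and nad4L also rose without overlap between the groups. For nad6, signals were 520.2, 396.6 and 532.7 in sorted protoplasts and 58.64 and 90.90 in whole roots, a log2 difference of 2.71 (SE 0.24, limma adjusted p = 7.11e-05). Those of nad4L were 331.1, 316.7 and 358.3 against 77.78 and 53.71 (2.37, SE 0.21, limma adjusted p = 6.97e-05). The 2 whole-root values differed 1.55-fold for nad6 and 1.448-fold for nad4L, and neither reached the lowest sorted value. The matrix-arm subunit nad9 gave 352.2, 315.8 and 373.9 against 48.91 and 90.95 (2.38, SE 0.27, limma adjusted p = 0.000218), again with every sorted value above both whole-root values.

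Not every complex I gene moved this way. The membrane-arm subunit nad4 gave 694, 627.3 and 1004 in sorted protoplasts and 914 and 1210 in whole roots, so the groups overlapped and the log2 difference of -0.47 missed the threshold (limma adjusted p = 0.109). When sorted replicate 3, the highest of the 3, was left out, nad4 was called lower (-0.67, limma adjusted p = 0.0287). The probe sets of nad2 and nad7 were too dim to test. That of nad2 read 1.20 to 12.94 in sorted protoplasts and 1.41 and 1.80 in whole roots, and that of nad7, a matrix-arm subunit, read 26.08 to 42.49 against 24.18 and 1.04.

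**Figure D2:**
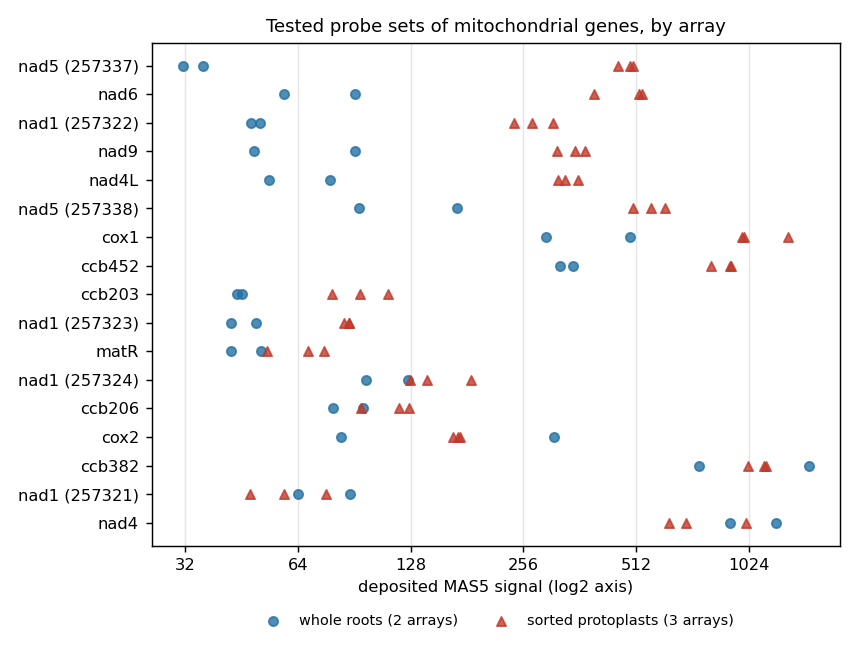
Deposited signal (log2 axis) of the 17 tested mitochondrial probe sets on each of the 5 arrays, ordered by fitted difference, with whole roots as circles and sorted protoplasts as triangles; where a gene has several probe sets, the probe set number stands in brackets. For nad5, nad6, nad9 and nad4L the triangles lie to the right of both circles, whereas for cox2 they lie between the circles at 83.42 and 309.6.

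The trans-spliced gene nad1 has 7 probe sets under its name, and they did not move alike. Probe set 257322_at read 241.7, 270.5 and 307.1 in sorted protoplasts and 48.09 and 50.75 in whole roots (log2 difference 2.46, SE 0.19, limma adjusted p = 4.16e-05). Probe set 257323_at rose less, from 49.62 and 42.32 to 87.61, 84.87 and 87.90 (0.92, SE 0.22, limma adjusted p = 0.0077). That call was lost without whole-root replicate 2 (0.81, limma adjusted p = 0.0552). Another pair of tested probe sets of the same gene did not pass.

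Of these, 257324_at read 185.8, 127.2 and 141.2 against 97.28 and 126.1 (0.43, limma adjusted p = 0.142), so the groups were separated by a narrow margin. In 257321_at, with 76.09, 58.91 and 47.79 against 64.21 and 88.15, they overlapped (-0.33, limma adjusted p = 0.344). The remaining 3 nad1 probe sets were below the filter bound and their groups overlapped. To set probe sets of the gene against each other, the log2 difference of 257322_at and 257321_at was taken within each array. It was 1.67 to 2.68 in sorted protoplasts and -0.80 to -0.42 in whole roots. Against 257324_at it was 0.38 to 1.12 and -1.31 to -1.02. For the 2 probe sets of nad5 the difference was -0.28 to -0.13 in sorted protoplasts and -2.43 to -1.39 in whole roots, where 257337_at lay below the filter bound and the size is imprecise. These pairs were chosen after the probe sets' values were seen, so the differences are given as a description with no test. The annotation does not say which piece of nad1 or nad5 each probe set covers.

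**Figure D3:**
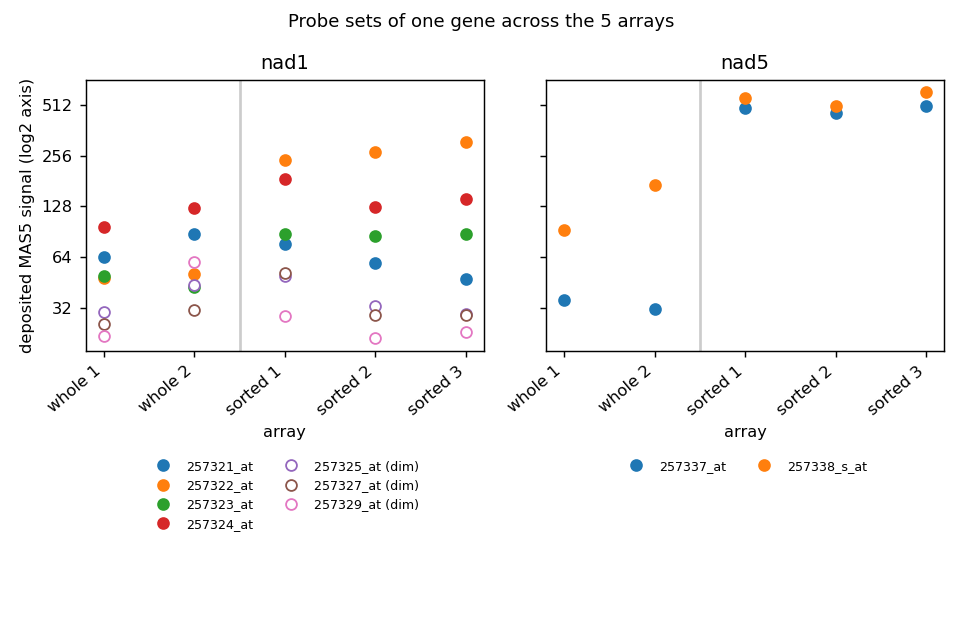
Deposited signal (log2 axis) of the 7 nad1 and the 2 nad5 probe sets on each array, with 1 colour per probe set and hollow points for those below the filter bound. Among nad1 probe sets, 257322_at goes from about 50 in whole roots to 241.7 or more in sorted protoplasts, while 257321_at stays between 47.79 and 88.15 on all arrays.

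The second nad5 probe set, of the shared-probe class, also rose. It read 561.5, 502.5 and 611.4 in sorted protoplasts and 93.38 and 170.5 in whole roots, with a log2 difference of 2.14 (SE 0.26, limma adjusted p = 0.00029). Both nad5 probe sets thus changed in one direction, by unequal amounts.

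Complex IV passes electrons to oxygen, and its catalytic subunits cox1 and cox2 behaved differently. The signals of cox1 were 1302, 982 and 997.1 in sorted protoplasts and 492.2 and 293.9 in whole roots, without overlap (1.51, SE 0.24, limma adjusted p = 0.00109). Those of cox2 were nearly constant in sorted protoplasts, at 173.1, 166.3 and 171.8, but 309.6 and 83.42 in the 2 whole-root samples. The sorted values thus lay between the whole-root replicates, which differed 3.711-fold, and the log2 difference of 0.08 did not pass (limma adjusted p = 0.885). Leaving out 1 whole-root sample decided its sign: 1.03 without replicate 1 (limma adjusted p = 0.0136) and -0.86 without replicate 2 (limma adjusted p = 0.0202).

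The ccb genes encode parts of the machinery that attaches haem to cytochrome c. Of their 4 probe sets 2 rose, beside 34.1% of all tested probe sets. RefSeq now lists ccb452 as ccmFC, ccb203 as ccmFN2, ccb382 as ccmFN1 and ccb206 as ccmB. For ccb452, signals were 910.6, 811.7 and 916 in sorted protoplasts and 348.4 and 320.5 in whole roots (1.39, SE 0.14, limma adjusted p = 0.000143). Those of ccb203 were 93.98, 111.3 and 78.90 against 45.39 and 43.91 (1.07, SE 0.24, limma adjusted p = 0.00571). Neither gene's groups overlapped. In contrast ccb382 gave 1124, 1017 and 1141 against 755.5 and 1484, with the sorted values between the whole-root ones (0.05, limma adjusted p = 0.890). The groups also overlapped for ccb206, with 94.30, 126.8 and 119.1 against 95.33 and 79.35 (0.37, limma adjusted p = 0.180). The maturase gene matR read 74.98, 53.07 and 68.05 against 42.45 and 50.95, without overlap, but the difference of 0.48 did not pass (limma adjusted p = 0.149). Centring each array on its median shifted all differences by 0.24, and ccb206, matR and the nad1 set 257324_at then passed, which took the mitochondrial count from 10 to 13.

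The gene tables used here hold no product names for the chromosome 2 loci, so these are described by their IDs, values and position order alone. AT2G07777 had the highest log2 difference among those tested. It read 185.1, 203.2 and 183.5 in sorted protoplasts and 11.27 and 16.90 in whole roots (3.79, SE 0.26, limma adjusted p = 2.43e-05). Set against the filter bound of 43.3, its sorted mean of 190.6 was 4.398-fold higher. The named member next to it along the chromosome, AT2G07749, had a geometric mean signal of 33.67, below that needed for testing. It read 78.11, 101 and 111.9 against 10.69 and 4.58. In the fit with no filter its log2 difference was 3.78 (limma adjusted p = 0.000436). Both loci were thus below the bound on the whole-root arrays and above it on every sorted one, and both have probe sets outside the shared-probe class.

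Of the other tested loci, AT2G07708 went from 463 and 501.5 in whole roots to 1637, 1782 and 1806 in sorted protoplasts (1.85, SE 0.13, limma adjusted p = 3.16e-05). AT2G07705 read 166.8, 126.6 and 168.4 against 22.61 and 45.79 (2.25, SE 0.33, limma adjusted p = 0.000706). For AT2G07732 the values were 101.2, 63.05 and 102.8 against 15.36 and 21.08 (2.27, SE 0.32, limma adjusted p = 0.000635). Both had whole-root means below the filter bound, and against it the sorted mean was 3.552-fold higher for AT2G07705 and 2.053-fold higher for AT2G07732.

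AT2G07719 followed with 234.6, 147.8 and 186.6 against 66.80 and 59.97 (1.56, limma adjusted p = 0.000883), and AT2G07741 with 866.2, 677.4 and 878.4 against 323.3 and 409.3 (1.14, limma adjusted p = 0.00114). The smallest differences called were those of AT2G07707 and AT2G07676. Signals of AT2G07707 were 347.9, 346.5 and 398.7 against 227.5 and 166.8 (0.90, limma adjusted p = 0.00409). AT2G07676 read 69.92, 80.90 and 78.71 against 40.93 and 30.09, with the whole-root mean again below the bound (1.12, limma adjusted p = 0.00606). The AT2G07676 call was lost without whole-root replicate 2 (0.90, limma adjusted p = 0.0524). Among all 17 tested loci, 9 had every sorted value above both whole-root values, beside 42.7% of all tested probe sets. The opposite order held for 33.1% of all tested probe sets and for 0 of the 17 tested loci.

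Of the 9 tested loci that did not pass, AT2G07722 came closest, with 270.8, 290.7 and 296.6 against 157.5 and 243.9 (0.54, limma adjusted p = 0.0553). It passed after median centring (0.78, limma adjusted p = 0.0154), without sorted replicate 1 (0.58, limma adjusted p = 0.0276) and without whole-root replicate 2 (0.86). AT2G07751 was nearly level, at 975.8, 1343 and 1411 against 987.3 and 1414 (0.05, limma adjusted p = 0.843). The lowest log2 difference was that of AT2G07739 (-1.03, limma adjusted p = 0.117), whose whole-root values of 67.35 and 266.8 differed 3.961-fold. Without whole-root replicate 1 it was called lower (-2.03, limma adjusted p = 0.00517). AT2G07721 varied instead among the sorted arrays, at 74.70, 24.15 and 40.45 against 65.31 and 73.69 (-0.73, limma adjusted p = 0.187), and was called lower without sorted replicate 1 (-1.15, limma adjusted p = 0.00946). The other 5 tested loci (AT2G07674, AT2G07695, AT2G07718, AT2G07773 and AT2G07776) overlapped between the groups, with log2 differences from -0.27 to 0.53. Of these, AT2G07674 was called higher without sorted replicate 1 (0.76, limma adjusted p = 0.0152).

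**Figure D4:**
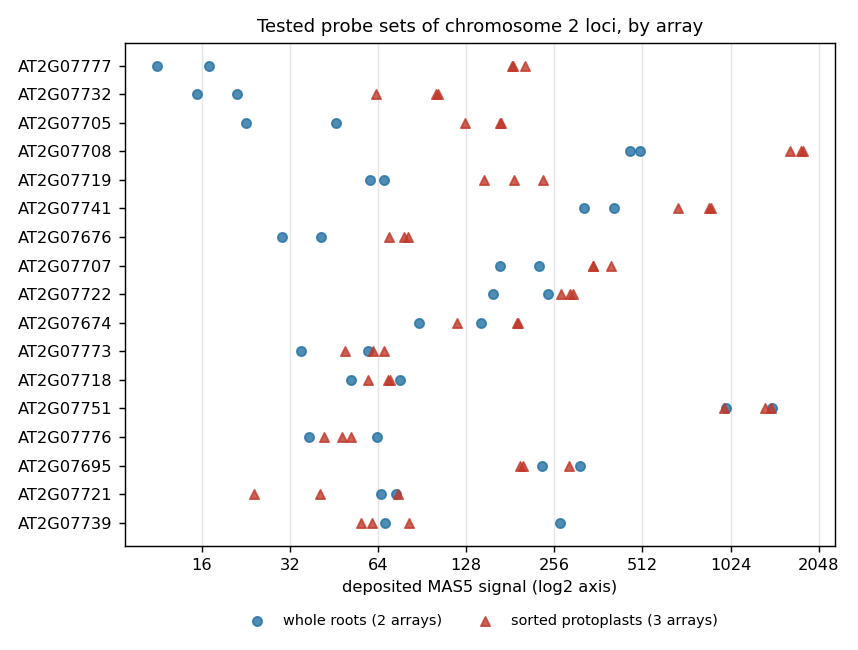
Deposited signal (log2 axis) of the 17 tested chromosome 2 probe sets on each of the 5 arrays, ordered by fitted difference, with whole roots as circles and sorted protoplasts as triangles. The top 8 loci, from AT2G07777 to AT2G07707, have all triangles to the right of both circles.

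RefSeq (TAIR10.1) places 36 of the 37 loci on chromosome 2 and calls 9 of them pseudogenes. None of these 9 was bright enough to test, where the filter leaves out 40% of all probe sets. Their highest signal on any array was 19.5. The first 3 loci in chromosome order read at most 9.196 and the last 6 at most 18.23. Most of these end loci are the same pseudogenes, and both end blocks were drawn where the untested loci end. That all 16 tested loci with a position lay among the 27 between them thus follows from how the blocks were drawn. Dim loci also lay among these 27. Called and uncalled loci were interleaved there: AT2G07707 and AT2G07708, neighbours among the members, both rose, while AT2G07721 next to AT2G07719 did not pass. Of 13 tested shared-probe loci 6 were called higher, and of 4 tested other loci 2 were. Over the array, 189 of 484 tested shared-probe sets and 4459 of 13149 tested sets with a plain _at name were called higher. Over all 37 loci, dim ones included, 13 were higher and 4 lower in every sorted array than in both whole-root arrays, against 30.9% in each direction over all probe sets.

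The 20 loci below the filter bound read between 0.446 and 111.9 on single arrays, and in the fit with no filter only AT2G07749 and AT2G07728 of them were called. AT2G07728 gave 28.26, 27.31 and 56.14 in sorted protoplasts and 13.95 and 6.22 in whole roots (1.92, limma adjusted p = 0.0289), with no overlap but a wide spread in both groups. The 4 loci lower in every sorted array were AT2G07673, AT2G07678, AT2G07714 and AT2G07720, none of them called. AT2G07714, for example, gave 14.59, 16.88 and 16.47 against 35.10 and 37.03, with little spread within either group.

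**Figure D5:**
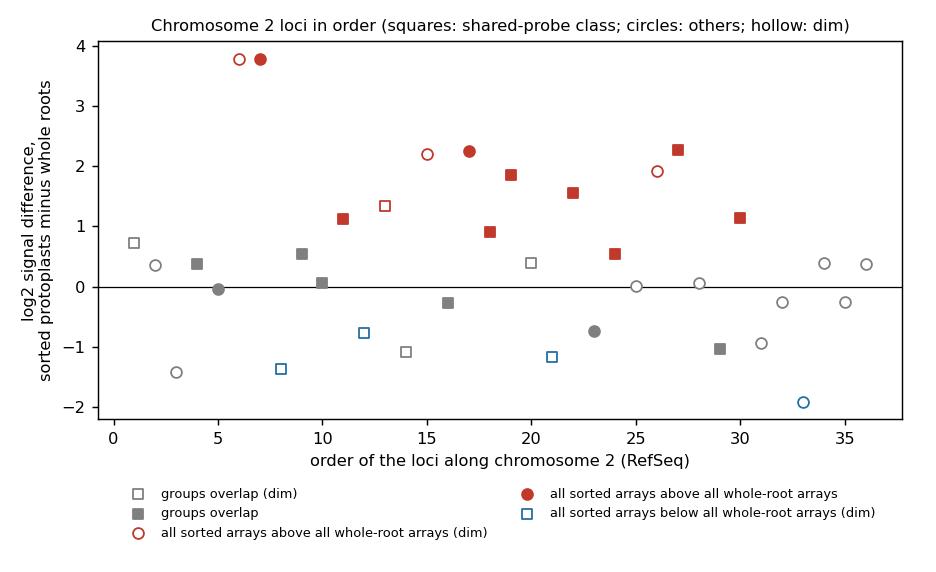
Log2 signal difference (fit with no filter) of the 36 chromosome 2 loci with a RefSeq position, in their order along the chromosome; squares are shared-probe sets, hollow symbols are below the filter bound, and colours show whether the groups overlap. The 2 highest points are the neighbours AT2G07749 and AT2G07777 at 3.78 and 3.79, and the loci at both ends are hollow.

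The 2 whole-root replicates differed by a larger median amount in both sets, and in plastid-encoded genes, than over all tested probe sets. The median absolute log2 difference between those replicates was 0.40 over the tested mitochondrial probe sets and 0.52 over the tested chromosome 2 probe sets, against 0.19 over all tested ones and 0.44 over 61 plastid-encoded ones. Among other probe sets with whole-root means between 49.42 and 196.5, the middle range of the mitochondrial members, it was 0.22 (5286 probe sets), and 13 of 17 mitochondrial members lay above that. For the chromosome 2 members the corresponding median was also 0.22 (5488 probe sets), and 14 of 17 lay above it. Replicate 2 was the higher in 9 of 17 mitochondrial and 13 of 17 chromosome 2 members, and in 6566 of 13647 tested probe sets. It was higher for ccb382 (1.964-fold) and nad9 (1.859-fold), and lower for cox2 (3.711-fold) and cox1 (1.675-fold). Among the 3 sorted arrays, the median log2 range was 0.35 for the mitochondrial and 0.41 for the chromosome 2 members, and 0.40 for all tested probe sets. The signals of the 25S control in the 2 whole-root samples, 96.43 and 2897, stand beside this spread, and their part in it was not tested.

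A list of nuclear genes of the respiratory chain was set beside these. Of 63 genes written down for complexes I to IV, cytochrome c, ATP synthase and the alternative pathways, 31 had a named probe set, and of 30 tested probe sets 5 rose and 15 fell in sorted protoplasts, with a median log2 difference of -0.41. This is 16.7% higher and 50% lower, beside 34.1% and 26.5% of all tested probe sets. After median centring 9 were higher and 10 lower, beside 5925 higher and 2876 lower of 13647 tested probe sets over the array. Quantile normalization gave 7 higher and 15 lower, beside 4955 and 3569 over the array. Higher were all 4 NDB genes, alternative NADH dehydrogenases that pass electrons on without pumping protons. NDC1, of the same class, did not pass (0.25, limma adjusted p = 0.208), and the other listed genes of the class had no named probe set. NDB3 went from 50.97 ± 23.93 (SD, n = 2) to 322 ± 90.40 (SD, n = 3) (2.71, SE 0.34, limma adjusted p = 0.000332). NDB1 rose by a log2 difference of 1.64 and NDB2 by one of 1.26, and NDB4 had 1.08 (limma adjusted p = 0.00818). SDH2-2, an iron-sulfur subunit of complex II, rose as well (0.80, limma adjusted p = 0.00188). Lower in every sorted array but not past the threshold were the tested SDH2-1 probe set (-0.36, limma adjusted p = 0.0706) and SDH1-1 (-0.34, limma adjusted p = 0.072).

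Lower on that list were both cytochrome c genes, CYTC-2 (-1.02, SE 0.13, limma adjusted p = 0.00044) and CYTC-1 (-0.55, limma adjusted p = 0.00778). The lowest adjusted p-values were those of AT5G57815, which went from 784.9 ± 82.35 (SD, n = 2) to 105.9 ± 14.51 (SD, n = 3) (-2.90, SE 0.18), AT2G47380 (-1.90), AT5G47030 (-2.39) and AT1G53030 (-2.32). Of 11 genes written down for mitochondrial transcription and intron splicing, 4 had a named probe set and 2 were bright enough to test. Both rose, beside 34.1% of all tested probe sets. They were AT5G46920 (0.97, limma adjusted p = 0.00595) and AT5G15700 (0.66, limma adjusted p = 0.0364), the latter not passing with no filter (limma adjusted p = 0.0541). Of the dim ones, AT1G74350 read 13.94, 20.20 and 15.55 against 29.13 and 30.64, lower in every sorted array. AT5G04050 went the other way, with 31.32, 60.07 and 28.02 against 19.48 and 25.12. Genes of the other organelle genome, that of the plastid, gave 4 higher and 26 lower of 61 tested probe sets, with a median of -0.54. These are 6.56% higher and 42.6% lower, beside 34.1% and 26.5% of all tested probe sets. Whether these lists differ from the mitochondrial genes was not tested.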

How the data were processed

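The deposited values are linear intensities, 1 for each probe set on each array. For all arrays the submitters' processing notes name MAS5 as the authors' method. The software version and detection calls were not given in the sources used here. The 2% trimmed mean was 250 on each of the 5 arrays, so every array had been scaled to 1 target, and their number, 3 against 2, limits the precision.

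The analysis took log2 of these values with no further normalization, left out 64 control probe sets and the 40% with the lowest mean log2 value (9099), and tested 13647 with limma 3.58.1 (R 4.3.3; lmFit, eBayes with a mean-variance trend, group as sole factor, Benjamini-Hochberg adjusted p under 0.05). The test code was run on simulated data with independent noise and few changed probe sets. That setting differs from these arrays, so the run lends no support to the p-values. Every tested member is named. On the nuclear list, the 4 lowest adjusted p-values in each direction are named, and NDB4 and both CYTC genes were added after their values were seen.

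Gene names came from the platform annotation (1 gene for 13513, several for 503, none for 8730 besides controls), and IDs and order came from RefSeq (TAIR10.1). No sequence and no coordinates are printed. Members and lists were chosen with earlier results of these data known. The comparison was repeated with arrays centred on the median or quantile-normalized, 32 added before log2, the filter dropped or raised to 60%, the trend dropped, the replicate number as a block, each sample left out in turn, shared-probe sets left out and 1 probe set per gene.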

Additional observations from a re-analysis of the deposited data

Results flagged for a closer look

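Some signals outside the members stood above those of the whole roots in every sorted array. They belong to 7 of the 11 probe sets annotated to both a mitochondrial gene and a chromosome 2 locus, which the comparisons did not use. Their mean signals in sorted protoplasts (n = 3) and whole roots (n = 2) were 648.1 and 227.1, 288.6 and 132.7, 2022 and 1146, 181.2 and 41.56, 202.7 and 44.85, 116.3 and 41.17, and 716.5 and 391.2. Each of the 7 was called higher, with log2 differences of 0.86 to 2.14 (limma adjusted p from 0.000147 to 0.0172). Of the other 4, 1 was lower, though not in the fit with no filter, and 3 did not pass. Higher calls were thus made for 7 of the 11, beside 34.1% of all tested probe sets. Since the 7 were picked for lying above the whole roots, their calls are no separate support. The mitochondrial gene orfX, which RefSeq lists as mttB and which the name rule does not take, read 708.8 ± 150.5 (SD, n = 3) against 247.8 ± 75.72 (SD, n = 2) and was also called higher (1.53, limma adjusted p = 0.00112).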

How the results depend on the processing

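Over 391 combinations of a tested member with an alternative setting, 363 kept direction and side of the threshold, 2 lost the call, 14 gained one and 12 changed sign; 18 of 34 members kept both throughout. The mitochondrial count of higher calls was 10, and 7 to 13 over the alternatives; that of the chromosome 2 loci was 8, but 3 with the 60% filter (7 loci tested) and 2 with shared-probe sets left out (4 tested). The median log2 difference of the mitochondrial probe sets was 1.31 after median centring, 1.33 after quantile normalization, 0.72 with a pseudocount of 32, 1.83 with the 60% filter, 0.92 without shared-probe sets, 1.39 with 1 probe set per gene, and 0.95 to 1.20 with a sample left out. That of the chromosome 2 loci was 0.78 after centring, 0.71 after quantile normalization, 0.37 with no filter, 1.099 without shared-probe sets, and 0.23 to 0.86 with a sample left out. Lower calls numbered 0 to 1 in either set with a sample left out. The nuclear list had 9 higher calls after centring, and all probe sets 2223 lower calls with the 60% filter, which tests fewer. With the replicate number as a block, the mitochondrial median was 1.20, with 10 higher calls and 1 lower call (nad4, -0.67, limma adjusted p = 0.0333). Same-numbered samples did not deviate together (r = 0.006 and 0.001), so the numbers were not taken to pair the samples. Signs changed only for members not called in the reported comparison: AT2G07776 was 0.19 after centring, 0.30 after quantile normalization and -0.44 to 0.34 with a sample left out; AT2G07751 was -0.046 under the block and -0.20 to 0.31 with a sample left out. Also with a sample left out, ccb382 spanned -0.44 to 0.53, AT2G07773 -0.0096 to 0.75, AT2G07718 -0.21 to 0.35 and cox2 -0.86 to 1.03. The cause of these changes was not tested. With 3 arrays against 2, where leaving out a whole-root array leaves 1 that is assumed to vary like the others, and with 5 called members below the filter bound in whole roots, folds of dim members are imprecise.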
